A study of Mus musculus with 3 samples.

Results

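The TRIM genes encode tripartite-motif proteins, a large family of which most members are RING-type ubiquitin ligases. They were taken as every gene whose symbol is Trim followed by a number and that has at least 1 annotated protein-coding transcript. This gave 68 genes of 55536 annotated genes, or of 22028 protein-coding genes. The symbol alone matched 69 genes, and the one left out, Trim30e-ps1, is annotated as a pseudogene and was listed at 0 in every library. The measurements were total RNA-seq libraries, depleted of ribosomal RNA, from the cytosolic fraction of C57BL/6J mouse bone-marrow-derived macrophages, which are primary cells grown out of marrow precursors. All libraries belong to 1 group of 3 biological replicates. The cells were exposed to 100 ng/ml Lipid A for 12 h, kept without it for 12 h, and exposed again to 100 ng/ml Lipid A for 30 min. Lipid A is the part of bacterial endotoxin that activates Toll-like receptor 4. No untreated cells, other times or other fractions were used here, so a level below is a level at 1 time and says nothing of induction. The 3 libraries carry the same donor entry, so an SD or a p here reflects how much these samples varied, and that variation may be technical.

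A TRIM protein begins with a RING domain, which recruits an E2 enzyme loaded with ubiquitin, followed by B-box domains and a coiled coil through which the proteins assemble. The C-terminal part differs between members and binds the target, most often through a SPRY domain. A few members, such as Trim14, Trim16, Trim29 and Trim44, lack the RING and so the usual means of acting as a ligase. In macrophages the family is best known for innate immunity. Trim25 attaches ubiquitin to the RNA sensor RIG-I, Trim21 is a cytosolic receptor for antibody bound to virus, the Trim5 relatives restrict retroviruses, Trim30a dampens Toll-like receptor signalling, and Trim28 is a corepressor that silences retroelements. Many of these genes are interferon-stimulated, through the interferon-stimulated response element (ISRE) bound by IRF and STAT factors.

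Promoter windows of 53 of the 68 genes were found in a RefSeq table of build GRCm38.p6, the same assembly as mm10, each running from 250 bases before to 50 bases after a transcript start. The core of the ISRE was searched on either strand as GAAA, any 2 bases and GAAA, with overlapping matches kept. It occurred in 9 of the 53 genes (17.0%), against 3.99% of the 27025 genes in the table. The 9 were Trim30a, Trim30d, Trim12a, Trim12c, Trim34a, Trim5, Trim21, Trim26 and Trim2, and 6 of them belong to 1 group of 10 neighbouring genes on chromosome 7. Several of those are near-copies and share promoter sequence, so they are not independent occurrences. Counted by window, 10 of 67 windows of these genes held the core, against 3.44% of all 32851 windows. A core of the kappa B site, GGG, any 2 bases and TTTCC, was found in 0 of the 53 genes on either strand, and in 1.89% of all genes. A match is a string of letters and not evidence of a bound factor, and a missing match says only that the letters are not in the window.

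The stretches around the match are given for the matched genes at 2 TPM or more, because they let the copies be compared. TPM is the level of a transcript or gene scaled for length and depth. Each is written 5′ to 3′ on the strand of its gene, from RefSeq, GRCm38.p6, and the capitals mark the match, or the run of overlapping matches. Where the core lies on the other strand, the gene's strand reads TTTC, any 2 bases and TTTC.
Trim30a, chr7:104465195-104465254, minus strand: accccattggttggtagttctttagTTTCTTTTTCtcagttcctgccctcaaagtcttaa
Trim30d, chr7:104507856-104507915, minus strand: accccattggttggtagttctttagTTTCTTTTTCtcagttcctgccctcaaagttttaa
Trim12c, chr7:104353350-104353403, minus strand: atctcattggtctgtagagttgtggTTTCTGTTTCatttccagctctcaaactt
Trim5, chr7:104288121-104288180, minus strand: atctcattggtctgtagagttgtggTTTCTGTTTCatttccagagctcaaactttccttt
Trim12a, chr7:104315466-104315495, minus strand: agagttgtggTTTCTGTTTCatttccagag
Trim34a, chr7:104244457-104244486, plus strand: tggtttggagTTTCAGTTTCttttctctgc
Trim21, chr7:102565450-102565479, minus strand: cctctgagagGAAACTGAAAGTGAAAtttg
Trim26, chr17:36836961-36837020, plus strand: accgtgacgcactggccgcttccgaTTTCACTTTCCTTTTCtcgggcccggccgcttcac

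Over 30 bases centred on the match, Trim30a and Trim30d had 0 differences, as did Trim5 and Trim12a, and Trim12c differed from either of the latter at 2 bases. Trim30a and Trim5 differed at 15 of these 30 bases. Trim30a has another annotated start, with a window at chr7:104446076-104446375, whose match began at the 3rd base of the transcript and differed from the Trim30a and Trim30d stretches at 4 of 30 bases. In the windows used above the match began 36 bases before the annotated start in Trim30a and 41 before it in Trim30d, and at the 11th base of the transcript in Trim12a and Trim34a. Of the 9 genes with the core 8 were detected at 1 TPM or more in every library, 6 of these 8 from the chromosome 7 group. So were 15 of the 44 without it, 2 of these 15 from that group, and 41.2% of all protein-coding genes. Detection among all genes with and without the core was not worked out, and a link between core and level was not tested. The mean levels of the 9 genes with the core ranged from 0.62 TPM in Trim2 to 104.9 TPM in Trim30a, with a median of 21.1 TPM. The 44 genes without it had a median of 0.195 TPM. The identical stretches of Trim5 and Trim12a stood beside levels of 2.49 and 35.5 TPM, and Trim30c and Trim25, both over 30 TPM in mean, had no match in the window.

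Macrophage markers were abundant and those of other cells were low, most of them near 0. All 10 macrophage markers were detected, led by Lyz2 at 3194 ± 13.1 TPM, and their sum was 7681 to 8224 TPM. Of 27 markers of neutrophils, T and NK, B, dendritic, stromal and erythroid cells, 2 were detected. These were S100a8 at 3.31 to 3.76 TPM and S100a9 at 3.18 to 5.89 TPM. The highest of the rest was Pecam1, at 0.48 to 0.93 TPM, while Ly6g, Cd79a and Cd3e stood at 0.03 TPM or less in each library. Each library held 28759407 to 54709008 expected counts, an estimated read number per gene, and replicate 1 was the shallowest. Nuclear protein-coding genes held 27.9% to 30.0% of TPM, which is scaled over all RNA, coding or not.

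A total of 30 of the 68 TRIM genes were detected, meaning at least 1 TPM in every library, against 41.2% of all protein-coding genes. At a limit of 0.1 TPM the number was 40, against 49.9%. A level of 10 TPM or higher throughout was seen in 15 of them, against 17.0% of protein-coding genes. Trim36 and Trim6 passed 1 TPM in some libraries only, 23 genes stayed below 1 TPM with some counts, and 13 had 0 expected counts in all 3 libraries, against 33.0% of protein-coding genes. Together the 68 genes summed to 569 ± 46.3 TPM (SD, n = 3), which was 0.195% ± 0.00884 of the TPM of nuclear protein-coding genes. Their median level was 0.83 ± 0.04 on the log2(TPM + 1) scale, against 0.19 ± 0.01 for all protein-coding genes. Among detected genes the medians were 3.48 ± 0.12 and 3.21 ± 0.04. The family was thus spread from silent genes to a few at 40 TPM or more, as the plot of levels by library shows.

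**Figure D1:**
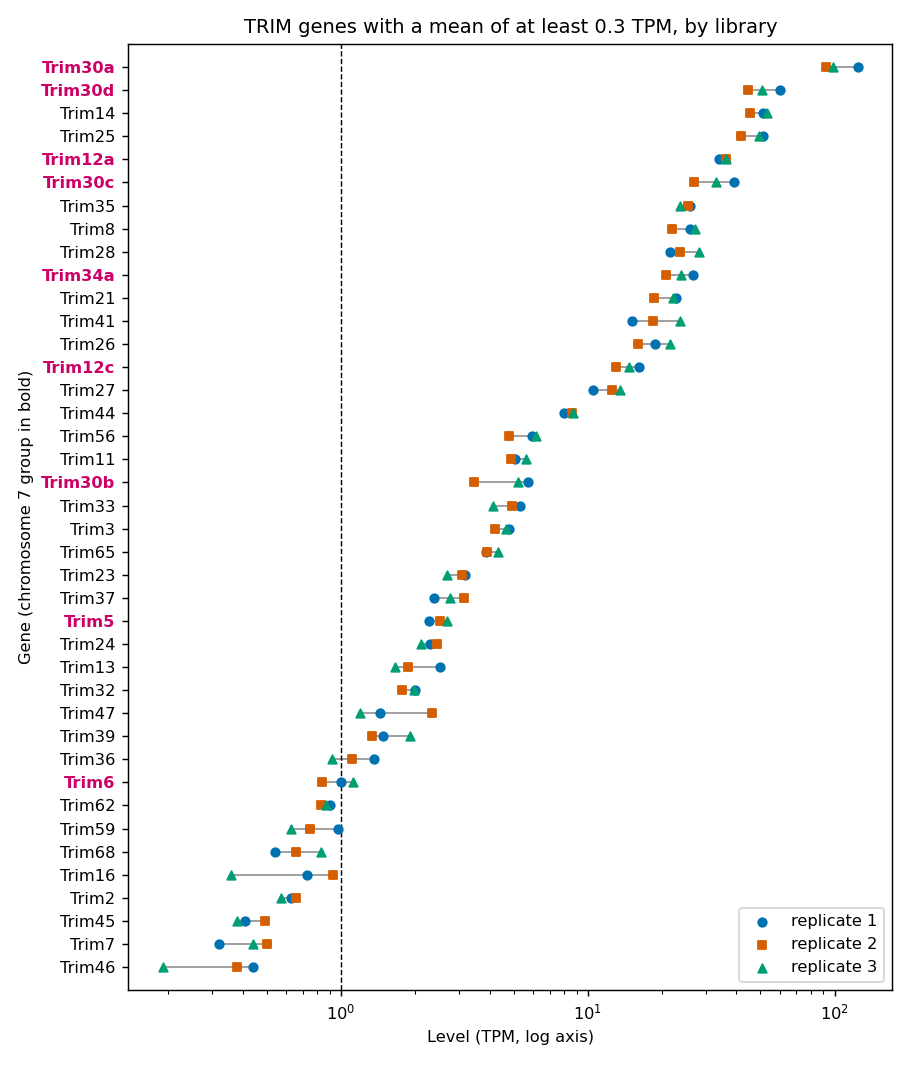
Level of each TRIM gene with a mean of at least 0.3 TPM, in TPM on a log axis. Each symbol is 1 library and each grey line joins the lowest and highest of the 3; the dashed line marks 1 TPM and bold names mark the chromosome 7 group. Trim30a stands apart at 92.07 to 123.91 TPM, and most neighbours in the order overlap.

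The order of levels was clear only at a few steps. Of 30 pairs of neighbours in the order, from genes at a mean of 1 TPM or more, 24 had overlapping ranges. Trim30a exceeded Trim30d, and Trim27 exceeded Trim44, by more than 3 SD of the difference within libraries. The steps from Trim25 to Trim12a, Trim30c to Trim35, Trim44 to Trim56 and Trim65 to Trim23 had no overlap in range but lay within 3 SD.

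The chromosome 7 group took about as much of the family's RNA as all other members together. These 10 genes lie within 289 kb at chr7:104218793-104507849 (mm10) and include the mouse relatives of the human retroviral restriction factor TRIM5. They held 50.9%, 46.4% and 45.8% of the family's TPM in replicates 1, 2 and 3, and 44.8% ± 2.67 of its expected counts. Of the 10 genes 8 were detected, against 41.2% of all protein-coding genes. The group thus carried a similar share on the scale that corrects for length and on the one that does not.

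Trim30a (ENSMUSG00000030921.17, chr7:104409025-104465193, minus strand), which encodes a negative regulator of Toll-like receptor signalling, stood at 123.91, 92.07 and 98.59 TPM in replicates 1, 2 and 3. It was the highest TRIM gene in each library, held 18.4% ± 1.81 of the family's TPM, and ranked 427 among protein-coding genes. Its neighbour Trim30d stood at 59.96, 44.43 and 50.88 TPM. Within each library Trim30a exceeded Trim30d by a log2(TPM + 1) difference of 1.00 ± 0.05, a 2.00-fold difference that was positive in 3 of 3 libraries. The two-sided exact sign-flip test gave p = 0.25, the smallest that 3 libraries allow, here and for each of the 8 pairs compared (adjusted p = 0.25). A pair was called different where the sign was shared and the mean exceeded 3 SD, which held for 8 of 8 pairs. Trim30c stood at 38.91, 26.92 and 33.02 TPM and Trim30b at 5.73, 3.45 and 5.19 TPM. All 4 genes were highest in replicate 1 and lowest in replicate 2.

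The Trim5 relatives differed widely in level. Trim12a stood at 34.09, 36.11 and 36.43 TPM, Trim12c at 16.17, 12.99 and 14.71 TPM, and Trim5 at 2.28, 2.52 and 2.68 TPM, with no overlap between the 3 genes. Trim12c was below Trim12a by a log2 difference of -1.23 ± 0.19, and Trim5 was below Trim12c by -2.16 ± 0.21. The first of these depends on short non-coding models of Trim12a: over coding transcripts alone Trim12a stood at 18.9 TPM and Trim12c at 14.6 TPM, a difference of -0.35 ± 0.09. Without correction for length Trim12c had the more expected counts, 3878 against 2437 in mean. The leading transcripts of Trim12c and Trim5 were 94.3% identical over 3710 aligned bases, and those of Trim12a and Trim5 97.0% over 952, so reads of these genes are divided by model. The deposited posterior SD of the count, the model's own uncertainty, was at most 0.67% of the count in any detected TRIM gene, with the largest value in Trim5.

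Trim34a stood at 26.69, 20.73 and 23.80 TPM, while its near-copy Trim34b stood at 0.04, 0.04 and 0.08 TPM. Their leading transcripts were 98.7% identical over 1827 bases, the whole of Trim34b, which had between 2.21 and 11.38 expected counts. The log2 difference of 4.55 ± 0.18 therefore rests on how few reads the model gave to Trim34b. Its size also depends on the 1 added to each TPM, as it was 7.28 with 0.1 added instead. An antisense gene, Gm47248, overlaps Trim34a and stood at 1.03 TPM; whether counting used strand is not given. Trim6, at the edge of the group, stood at 1.00, 0.84 and 1.12 TPM.

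**Figure D2:**
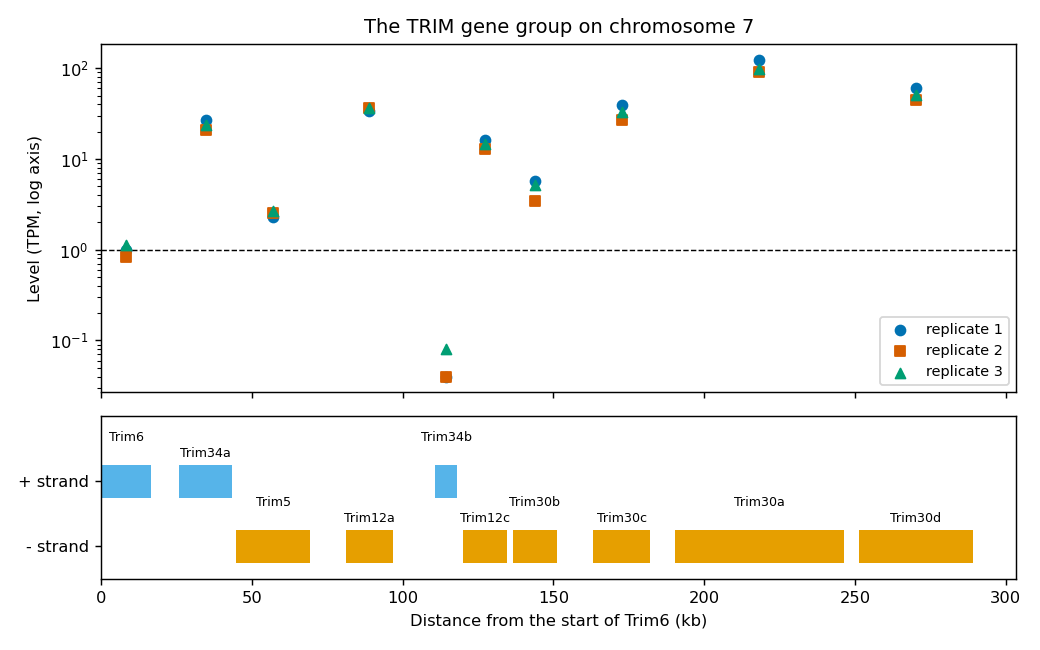
Levels and arrangement of the chromosome 7 group. The upper panel gives TPM on a log axis for each library at the middle of each gene, and the lower panel draws each gene to scale by strand, in kb from the start of Trim6. Trim30a and Trim30d, at the far end, are the highest, and Trim34b and Trim6 do not reach 1 TPM in every library.

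Of the 12 listed genes known from innate immunity 9 reached 1 TPM in every library, against 41.2% of all protein-coding genes. Trim14 (ENSMUSG00000039853.18, chr4:46493781-46536141, minus strand), an adaptor on mitochondria in antiviral signalling, stood at 51.45, 45.22 and 53.03 TPM. Trim25 (ENSMUSG00000000275.16, chr11:88999376-89020293, plus strand), the RIG-I ligase, stood at 51.12, 41.81 and 49.47 TPM. The 2 genes overlapped in range. Trim21, the cytosolic antibody receptor, stood at 22.72, 18.47 and 22.03 TPM, so that Trim25 exceeded it by a log2 difference of 1.13 ± 0.003 in the 3 libraries. That difference hardly varied although both genes were lowest in replicate 2. Over coding transcripts alone the difference was 1.18 ± 0.037, so the very small SD holds for the gene-level TPM.

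Trim8, a regulator of cytokine and NF-kB signalling, stood at 26.03, 21.91 and 27.18 TPM. Trim26, in the MHC region of chromosome 17, stood at 18.76, 15.95 and 21.56 TPM, and Trim27 at 10.46, 12.58 and 13.54 TPM. Trim56, linked to antiviral DNA and RNA sensing, stood at 5.92, 4.81 and 6.19 TPM. Trim65, a ligase for the RNA sensor MDA5, stood at 3.86, 3.92 and 4.31 TPM, and shares 5365 bases of its strand with Trim47. Trim13, a membrane-anchored ligase of the endoplasmic reticulum, stood at 2.52, 1.87 and 1.65 TPM, and the non-coding gene Dleu2 overlaps it on the other strand at 6.61 TPM. Trim8 exceeded Trim13 by a log2 difference of 3.12 ± 0.26.

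The other 3 of the 12 were not detected. Trim59 stood at 0.97, 0.75 and 0.63 TPM. Trim38 and Trim72 had 0, 0 and 1 expected counts in replicates 1, 2 and 3, so neither could be told from 0 at this depth. Trim38 is known as a regulator of Toll-like receptor and nucleic acid sensing, and Trim72 as a membrane repair protein of muscle.

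Outside these groups Trim35 had the highest mean, at 25.96, 25.56 and 23.62 TPM, and overlapped in range with the corepressor Trim28, described with its class. Trim41 stood at 15.15, 18.30 and 23.57 TPM, and Trim44, a member without a RING, at 8.0, 8.6 and 8.7 TPM. Genes on the other strand also overlap Trim14 (Nans, 8.15 TPM), Trim28 (Zbtb45, 3.63 TPM) and, over 31 bases, Trim41 (Rack1, 89.4 TPM), so reads of each pair may be shared if counting ignored strand. The lowest detected genes were Trim32 at 1.99, 1.76 and 1.98 TPM, Trim47 at 1.44, 2.33 and 1.19 TPM, and Trim39 at 1.48, 1.33 and 1.90 TPM. These 3 overlapped in range.

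The corepressor class was led by 1 gene. Trim28 (also known as KAP1, ENSMUSG00000005566.14, chr7:12999114-13031035, plus strand), which binds KRAB zinc finger proteins and recruits silencing machinery, stood at 21.52, 23.55 and 28.17 TPM. Trim33, a regulator of TGF-beta and SMAD signalling, stood at 5.29, 4.92 and 4.13 TPM, and Trim24, a nuclear receptor cofactor, at 2.30, 2.45 and 2.10 TPM. Trim66 was listed at 0.01, 0 and 0.02 TPM. Trim28 exceeded Trim33 by a log2 difference of 2.13 ± 0.34 and Trim24 by 2.95 ± 0.25. Over coding transcripts alone, where Trim28 stood at 9.53 TPM, the differences were 0.96 ± 0.27 and 1.74 ± 0.22, still past 3 SD. All 8 corepressor partners of Trim28 on the list were detected, against 41.2% of all protein-coding genes. They ranged from the remodeller Chd4 at 28.6 ± 4.16 TPM to the heterochromatin protein gene Cbx5 at 5.56 ± 0.366 TPM. The histone methyltransferase Setdb1 stood at 7.17 ± 1.01 TPM.

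The C-terminal classes were taken from general knowledge of the family and not checked on protein sequence. Of 38 SPRY genes 19 were detected, and of 4 PHD-bromodomain genes 3. So were 2 of 4 NHL genes and 3 of 8 genes with no such domain, against 41.2% of all protein-coding genes. The single MATH and ARF genes, Trim37 and Trim23, were detected at 2.76 ± 0.385 and 2.99 ± 0.263 TPM. Each gene was put in 1 class only, so a class need not hold every gene with that domain. None was detected of the 9 genes classed as COS, COS-FN3 or COS-FN3-SPRY, a region which binds microtubules, or as filamin (Trim45). They include Trim54, Trim55 and Trim63, the muscle MURF genes, and the neuronal genes Trim9, Trim46 and Trim67. Trim36 was the highest of them, at 1.36, 1.11 and 0.92 TPM. The symbol rule left out Mid1 and Mid2, TRIM proteins under other symbols. The microtubule-binding Mid1 stood at 21.6, 10.73 and 19.72 TPM, and Mid2 at 0.04 TPM or less.

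Outside the chromosome 7 group, 20 TRIM genes lie in 7 other groups of neighbours. Of these 6 were detected, against 41.2% of all protein-coding genes, and 12 had a mean under 0.1 TPM. Trim47 and Trim65 on chromosome 11 were both detected, and Trim21, Trim41 and Trim11 were detected beside lower neighbours, Trim68 at 0.677 TPM, Trim7 at 0.42 TPM, and Trim17 and Trim58 under 0.1 TPM. In the MHC cluster on chromosome 17, Trim26 was detected, whereas Trim10, Trim31 and Trim40 had 0 counts and Trim15 at most 11. None of the 3 Trim43 genes on chromosome 9 or of Trim60, Trim61 and Trim75 on chromosome 8 was detected. The genes with 0 expected counts in every library were Trim10, Trim31, Trim40, Trim42, Trim52, Trim54, Trim58, Trim60, Trim61, Trim63, Trim67, Trim71 and Trim80. The limit that such a 0 leaves, 3 counts of a library's total, is 0.104 CPM in replicate 1, 0.0548 CPM in replicate 2 and 0.0601 CPM in replicate 3, and covers counting error only. In the other deposited transcript table Trim52 was given 0.134 to 0.227 TPM and Trim63 0.0245 to 0.0432 TPM, so their 0 depends on the quantification. Trim58, Trim67 and Trim71 were also above 0 there in some library, at no more than 0.00783 TPM, and the other 8 were at 0 in both tables. Trim2, Trim6, Trim7, Trim16, Trim45, Trim46, Trim59, Trim62 and Trim68 stood between 0.3 and 1 TPM in mean, and Trim9, Trim15, Trim17, Trim29, Trim34b, Trim38, Trim43a, Trim43b, Trim43c, Trim50, Trim55, Trim66, Trim69, Trim72 and Trim75 below 0.1 TPM.

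Most TRIM genes varied between libraries by more than counting noise, as most genes did. A chi-square test of homogeneity with Benjamini-Hochberg adjustment over all genes called 33 of the 41 TRIM genes that averaged 10 or more counts, against 66.2% of all 13403 such genes. Among detected genes 26 of 30 were called, against 74.8%. The genes not called were Trim3, Trim6, Trim12a, Trim32, Trim45, Trim62, Trim65 and Trim68. Leaving out any 1 library lowered the count of 33, to 30, 24 and 21 without replicates 1, 2 and 3. The share over all genes was not worked out for these settings. The biological coefficient of variation estimates the spread that remains beyond counting noise, with each gene's value drawn toward the trend over all genes. It had a median of 0.124 over 40 TRIM genes and 0.134 over 12646 genes. The highest of the 40 was Trim16, at 0.288. The lowest was Trim12a, at 0.0958, beside a lowest value of 0.0956 over all genes. Since Trim12a was not called above, its value is no measured spread beyond counting noise.

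Most of the chromosome 7 genes were high in replicate 1 and low in replicate 2, a pattern noticed in these data. A total of 7 of its 9 genes with enough counts were higher in replicate 1 and lower in replicate 2 than the mean of the other libraries, whereas Trim12a and Trim5 were not. The same signs were seen in 10 of the other 32 TRIM genes and in 27.9% of all genes. By the scaled counts replicate 3 was in between in 5 of the 7, lowest in Trim30a and highest in Trim6. Genes outside the group had these signs too: 7 of 10 tested genes of the innate-immunity list, which holds no chromosome 7 group gene, 3 of 3 tested TRIM proteins under other symbols (Pml, Mid1 and Mefv), and 4 of 10 macrophage markers, Fcgr1 and Mertk among them. They were seen in 3 of 12 RNA sensing genes, with Ddx58 at log2 ratios of 0.28 and -0.27 in replicates 1 and 2. In the remaining lists 1 of 10 E2 genes, 3 of 7 ubiquitin and activating-enzyme genes and 4 of 8 corepressor partners of Trim28 had these signs. The log2 ratio of replicate 1 to the others was 0.34 in Trim30a, 0.33 in Trim30d, 0.33 in Trim30c and 0.36 in Trim30b, against -0.03 in Trim12a and -0.23 in Trim5. In replicate 2 it was -0.17, -0.21, -0.32 and -0.57 for the first 4 of these. Since the genes are neighbours and partly copies, and were seen together in 3 libraries, no test is given.

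Across all 41 genes 25 were higher in replicate 1 (46.7% of all genes), 22 were lower in replicate 2 (45.2%), where 19 were higher (54.8%), and 21 were lower in replicate 3 (53.3%), with medians of 0.05, -0.01 and -0.002 on the log2 scale. The largest single departures were those of low genes. Trim16 stood at 0.73, 0.93 and 0.36 TPM, with a log2 ratio of -1.15 in replicate 3, and Trim47 had a ratio of 0.92 in replicate 2. Trim17 had a ratio of -1.69 in replicate 2, from 14.3, 9.01 and 28.7 expected counts. The steadiest of the genes that averaged 100 or more counts were Trim12a, Trim62 and Trim44, with coefficients of variation of TPM of 3.57%, 4.05% and 4.49%.

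**Figure D3:**
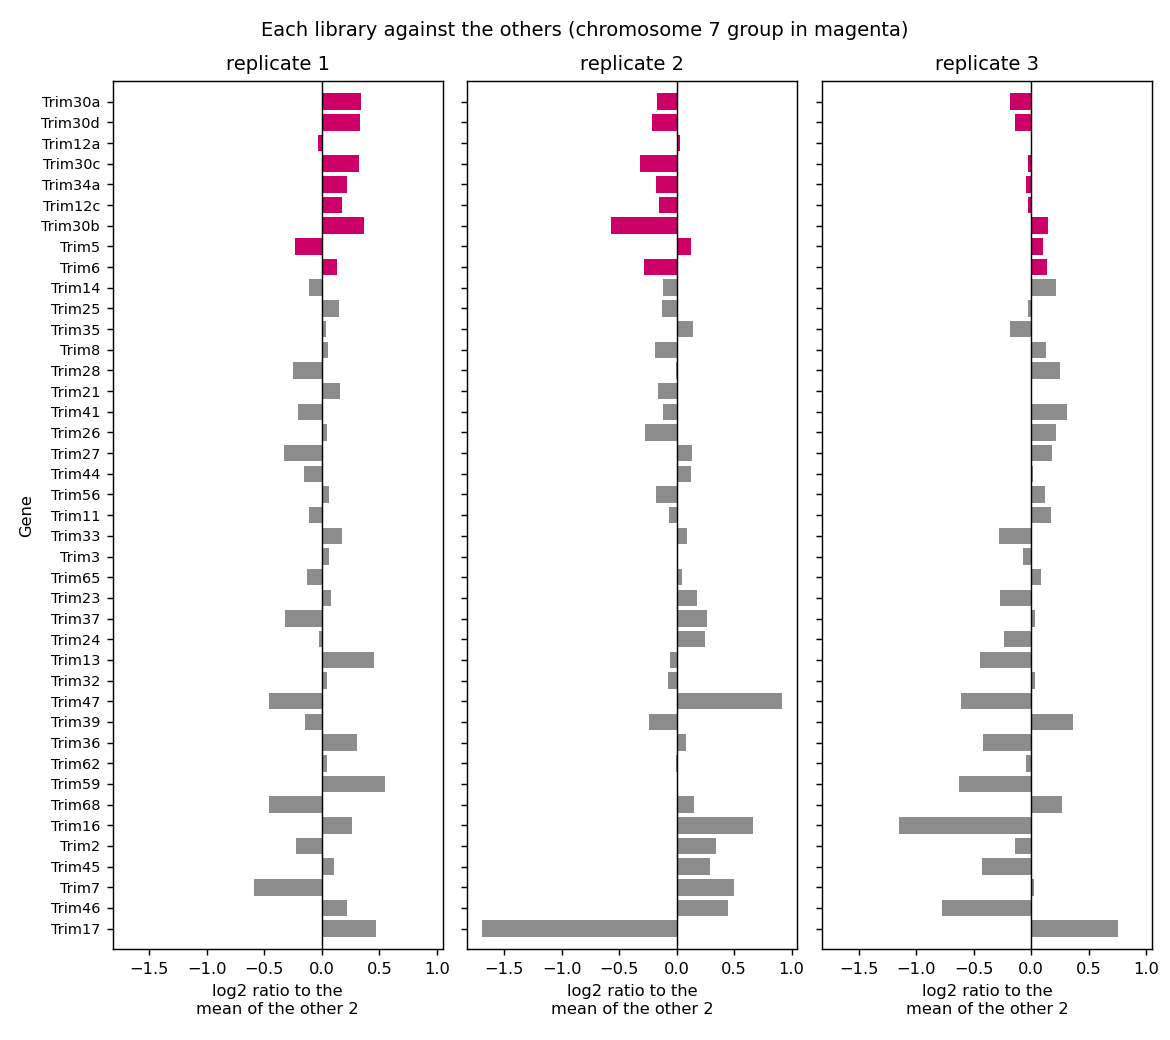
Log2 ratio of each library to the mean of the other 2, after TMM scaling, for the 41 TRIM genes that averaged 10 or more counts. Magenta bars are the chromosome 7 group and grey bars the others, each sorted by level. In replicate 1 the magenta bars lie to the right of 0 except for Trim12a and Trim5, and in replicate 2 to the left with the same exceptions.

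For most TRIM genes the RNA was assigned to protein-coding transcripts. The median coding share over the 30 detected genes was 99.6% of TPM and 99.8% of expected counts, and the leading transcript was protein-coding in 28 by TPM and 29 by counts. Trim30b was the exception on both scales. Its retained-intron transcript Trim30b-202 took 81.7%, 82.4% and 77.4% of its TPM, and 80.5% ± 3.08 of its counts. In the other transcript table the share was 69.1%. The model thus gave most of the Trim30b RNA of this cytosolic fraction to a transcript that keeps an intron, in either table, and nuclear RNA was not used here.

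Trim28 depended on the scale. A short retained-intron transcript, Trim28-203 of 565 bases, took 42.6% of its TPM but 10.1% of its counts, and the coding transcript Trim28-201 of 3245 bases took 39.1% of TPM and 82.0% of counts. In the other transcript table Trim28-203 took 26.4% of TPM and the coding transcript led with 46.9%, which made Trim28 the only detected TRIM gene whose leading transcript differed between the tables. TPM divides by length, so a few reads on a short model weigh heavily. The level of Trim28 in TPM counts these short models, and its coding transcript alone stood at about that 39.1% of it.

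Trim12a was similar, as the processed transcript Trim12a-206 of 562 bases took 43.9% of TPM and 16.8% of counts. In Trim26 the non-coding Trim26-209 took 27.4% of TPM in 1 table and 2.66% in the other. In Trim14 the non-coding Trim14-204 took 19.2%, 12.1% and 0% in replicates 1, 2 and 3. Trim30d and Trim34a each divided their RNA between a pair of coding transcripts, with 56.1% and 43.6% of TPM for Trim30d-202 and Trim30d-201, and 50.4% and 44.9% for Trim34a-203 and Trim34a-201.

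**Figure D4:**
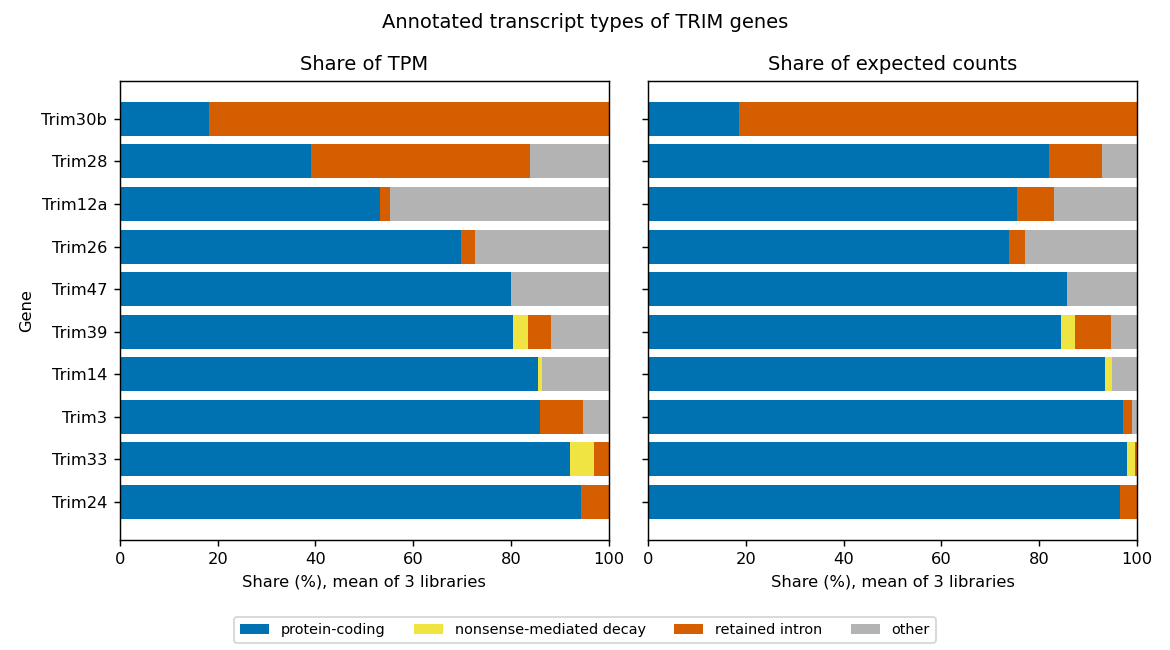
Share of TPM (left) and of expected counts (right) by annotated transcript type, as the mean of 3 libraries in percent, for detected TRIM genes with under 95% coding share of TPM. Trim30b is mostly retained intron in both panels, whereas Trim28 is 39.1% coding in the left panel and 82.0% in the right.

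The other transcript table gave lower TPM for the 31 TRIM genes at a mean of 1 TPM or more, but kept them close to each other's proportions. Over protein-coding genes at a mean of 1 TPM or more, its median log2 ratio to the gene table was -1.07, -0.93 and -1.54 in replicates 1, 2 and 3. Trim30a, for example, stood at 104.9 TPM in the gene table and 48.1 TPM in the other. After removal of each library's median ratio, 0 of the 31 TRIM genes at that level differed by a log2 ratio of over 0.5, against 2.99% of protein-coding genes. With log2(TPM + 1) differences, which move low genes upward by construction, the number was also 0, against 3.55%. The ratios ran from -0.29 in Trim28 to 0.25 in Trim30b, with 15 genes above 0 and 16 below. Trim25, Trim14 and Trim37 were at 0.24, 0.18 and 0.18, and Trim12a at -0.13. Trim36, Trim39 and Trim47 were at -0.02, -0.09 and -0.04.

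The listed genes of enzymes that a RING ligase works with were all detected. Among all protein-coding genes 41.2% were, the share to set beside each count of detected genes in this paragraph. All 7 listed genes of ubiquitin and of activating E1 enzymes, Uba7 included, were detected, among them the polyubiquitin gene Ubb at 345 ± 52.6 TPM. Uba7, the E1 of the ubiquitin-like ISG15, stood at 58.8 ± 11.9 TPM, above the main ubiquitin E1, Uba1, at 39.3 ± 2.92 TPM. All 10 listed E2 genes were detected, led by Ube2d3 at 123 ± 12.5 TPM and the ISG15 E2 Ube2l6 at 105 ± 10.2 TPM, with the chain-building Ube2n and Ube2v1 at 46.1 ± 0.901 and 49.5 ± 0.587 TPM. All 10 were lower in replicate 3 than the mean of the other libraries, by log2 ratios from -0.43 to -0.03, against 53.3% of all genes. Of 12 substrates and partners in RNA sensing 12 were detected, led by Ddx58, which encodes RIG-I, at 95.9 ± 15.5 TPM and the antiviral Zc3hav1 at 45.2 ± 5.36 TPM, with the adaptor Mavs at 12.5 ± 1.52 TPM. Of 8 TRIM proteins that go by other symbols 3 were detected: Pml, the organiser of nuclear bodies, at 31.1 ± 5.30 TPM, the microtubule-binding Mid1 at 17.4 ± 5.81 TPM, and Mefv, the pyrin inflammasome sensor, at 2.95 ± 0.360 TPM.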

How the data were processed

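The deposited gene tables hold, per the file headers, expected counts and TPM for each gene, together with a posterior SD, a score of the model's uncertainty in the count. 2 kinds of transcript table, also deposited by the authors, hold expected or estimated counts and TPM per transcript. Per the deposited text files, the build was mm10 and the annotation GENCODE M21. Aligner, quantifier and use of strand: not given in the sources used here. TPM of the other transcript table were summed per gene.

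Genes were chosen by symbol and annotated protein-coding transcript. The members, lists, pairs and named genes were chosen with earlier results of these data known. Named were the 8 highest and 3 lowest detected genes, the chromosome 7, PHD-bromodomain and innate-immunity lists, the 5 most and 3 least variable among genes averaging 100 or more counts, the 5 that differed most between tables, and the low genes. Transcripts named apart from leading ones, Trim17, and the pattern of signs between libraries were chosen after their values were seen.

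Detection meant 1 TPM in every library. Differences used log2(TPM + 1). Rounded expected counts were given TMM effective library sizes with edgeR 4.0.16 (R 4.3.3), which also gave the biological coefficient of variation after filterByExpr with an intercept alone. Counting noise was tested by a chi-square test of homogeneity against effective library sizes, with Benjamini-Hochberg adjustment at 0.05 over genes averaging 10 or more counts. A log2 ratio between libraries used CPM with a prior count of 0.5. Counts with counting noise alone were simulated for 13403 genes, with changed genes drawn from those averaging 100 or more counts. The test called 64.0% of genes changed 1.2-fold in 1 library, 98.0% at 1.5-fold and 0.0760% of unchanged genes. Changes in genes with fewer counts were not simulated. Paralog transcripts were aligned with blastn 2.17.0. The remaining steps were run in Python 3.11.15 with pandas 2.3.3, scipy 1.17.1, numpy 2.4.6 and matplotlib 3.10.9. Replicates 1, 2 and 3 held 28759407, 54709008 and 49878183 expected counts; a count of 0 allows up to 3 counts, from counting error only. Alternatives left out each replicate, or changed the detection limit, pseudocount, table, scaling (DESeq2 1.42.0 size factors among them) or filter. A search of protein sequences was not run.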

Additional observations from a re-analysis of the deposited data

How the results depend on the processing

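No paired analysis was possible because the libraries form 1 group. At a limit of 5 TPM 16 genes were detected in place of 30. Leaving out 1 library gave 30 to 31, the limit of 0.1 TPM gave 40, the other transcript table gave 23, and TPM rescaled to nuclear protein-coding genes gave 39. Of these settings, the share over all protein-coding genes was worked out only for 1 TPM (41.2%) and 0.1 TPM (49.9%). Whether the other counts differ from that share was not tested. The median log2 level of 0.83 was -0.19 at pseudocount 0.1, 3.48 over detected genes alone, 0.45 with the other transcript table and 1.87 with rescaled TPM, and 0.81 to 0.85 with 1 library left out. The genes called beyond counting noise numbered 21 to 30 with 1 library left out, the lowest without replicate 3, and 31 to 33 under the other settings. The median biological coefficient of variation was 0.160 without a filter and 0.123 to 0.133 with 1 library left out. Genes that differed between the quantifications numbered 0 to 1 with 1 library left out. The median coding share was 98.0% in the other transcript table and 99.8% by expected counts, the latter chosen after seeing the data. The 8 pairs kept their direction and call under all settings run. These include coding transcripts alone, chosen after seeing the data, which moved the difference of Trim12c and Trim12a to -0.35 and those of Trim28 from Trim33 and Trim24 to 0.96 and 1.74. The plain ratio of TPM between tables was also chosen after seeing the data. The causes of these shifts were not tested, apart from the limits and scales that define them. The ratio of replicate 3 has no value without replicate 3. The planned search of protein sequences was not run. Replicate 1, the shallowest, limits the precision of genes with few counts.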
